A study of Mus musculus with 29 samples.

Results

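The comparison asked which transcripts differed with loss of Dhx36 throughout meiotic prophase arrest, in growing and in fully grown mouse oocytes. Its members were the 16 libraries, of 29 in the series, whose labels name growing or fully grown oocytes. Growing oocytes were taken at 2 weeks of age (GO 2W, with 3 WT and 3 CKO libraries). Fully grown oocytes were taken at 3 weeks (FGO 3W, with 2 and 2) and at 4 weeks (FGO 4W, with 3 and 3). CKO females carried floxed Dhx36 alleles (Dhx36fl/fl) with Zp3-Cre, and the controls, called WT, were also Dhx36fl/fl, without the Cre. The Zp3 promoter drives Cre in oocytes once they have begun to grow, so the deletion is made in the oocyte itself. Every library was made by Smart-seq2 from the polyadenylated RNA of 10 pooled cells, and no label ties a tube to an animal, so the p-values rest on the spread between tubes, which may be technical. The other 13 libraries, metaphase II oocytes (MII 3W, 3 WT and 4 CKO) and zygotes (zygote 3W, 3 and 3), served only to ask whether the same genes were called again in other cells.

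DHX36 is a DEAH-box helicase that binds and unwinds G-quadruplexes, four-stranded structures that guanine-rich RNA or DNA can fold into, and it acts on many mRNAs in other cell types. A prophase oocyte builds its store of maternal mRNA during growth and then falls transcriptionally silent, with the chromatin condensed around the nucleolus, before it resumes meiosis. In a pool of whole cells, fewer transcripts per cell and fewer cells holding the transcript cannot be told apart. The libraries hold polyadenylated RNA, so a change in the poly(A) tail of a transcript cannot be told apart from a change in its amount either. Rises and falls below are of captured RNA, at all stages.

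Library totals ran from 17697507 to 49104313 counts, and between 15592 and 19890 genes had at least 10 counts. Of 49997 gene symbols, 20793 passed the count filter and were tested. Replicates of a group correlated at 0.9521 to 0.9837 on log2 CPM (CPM, counts scaled to a common total, here with TMM factors). TMM factors, which correct for the make-up of a library, did not overlap between genotypes, at 0.906 to 0.969 in WT and 1.02 to 1.11 in CKO, so values are changes relative to the bulk of genes. The first principal component of log2 CPM held 33.5% of the variance and put all 8 WT libraries on one side of 0 and all 8 CKO libraries on the other. Summed over 18 oocyte identity markers, CPM ran from 34900 to 43400 in WT (median 38100) and from 23300 to 34700 in CKO (median 29100), and each of the 18 had counts in both genotypes. Summed over 29 markers of follicle somatic cells, CPM ran from 117 to 151 in WT (median 123) and from 125 to 188 in CKO (median 151). The granulosa cell genes Amh and Foxl2 stayed at or under 0.72 CPM in every library, and the cumulus gene Ptx3 had 0 counts. Other markers of the list were present, with mean levels in WT and CKO of 41.2 and 56.6 CPM for Cyp19a1, 53.6 and 37.2 for Pecam1, 7.36 and 13 for Kitl, 6.87 and 5.48 for Inha and 1.67 and 26.3 for Fshr.

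Dhx36 itself (chromosome 3, 62468015 to 62507034, GRCm38) did not fall in the CKO libraries. Its level was 22.6 CPM at the lowest, 76.8 at the median and 91.0 at the highest in WT, and 35.0, 90.0 and 112.1 in CKO. The genotypes overlapped, and both were lowest at FGO 3W. The log2 fold change of CKO over WT was 0.30 (SE 0.10, edgeR quasi-likelihood adjusted p 0.0242). The mean difference of log2 CPM within stages was 0.317 (exact two-sided permutation p 0.0125, where 0.000833 is the smallest that 2400 arrangements allow), and it missed the threshold without the FGO 4W libraries (0.339, exact permutation p 0.167) or without the first CKO FGO 3W library (0.276, exact permutation p 0.0975). The labels do not say which exons are deleted, and reads from the remaining exons count toward the gene, so its total is no check of genotype. Genes within 5 Mb on either side of Dhx36 were called in 50.9% of 57 tested, with 14 higher and 15 lower, against 45.2% of all genes.

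**Figure D1:**
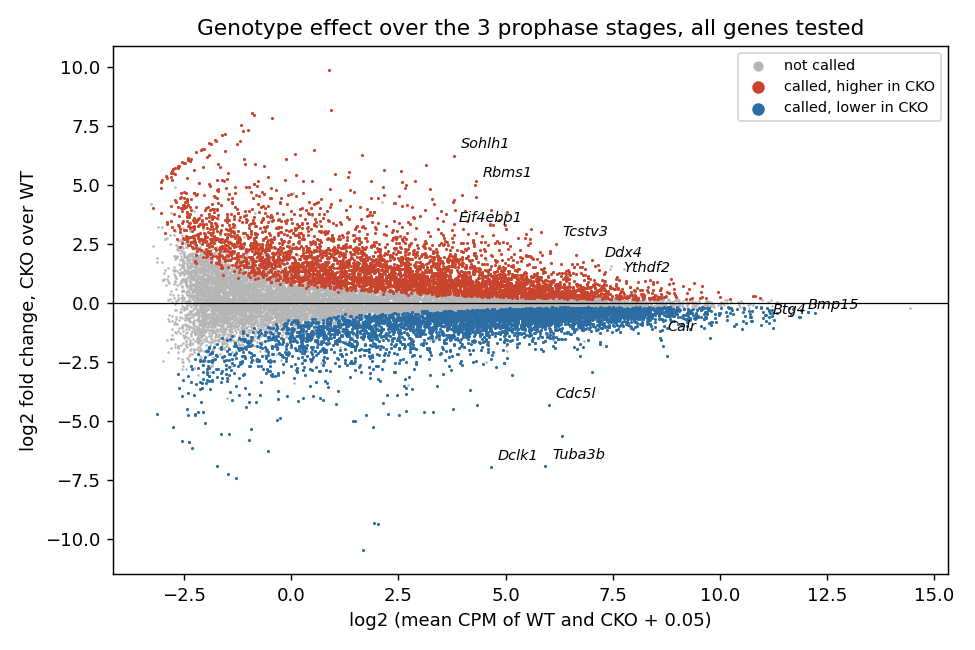
Log2 fold change of CKO over WT for the 20793 genes tested, against log2 of mean CPM, with 4618 genes called higher (red), 4789 called lower (blue) and the others grey. Large increases sit mostly at low CPM, while the genes with the highest CPM lie mostly at or just under 0.

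At an adjusted p under 0.05, 9407 genes (45.2% of those tested) were called for genotype across the prophase stages, 4618 higher in CKO (22.2%) and 4789 lower (23%). The directions were even in number and uneven in size. Among called genes the median log2 fold change was 1.20 for those higher and -0.68 for those lower, a gap that narrowed within classes of transcript level (given below). At least 2-fold changes were called higher in 2732 genes (13.1%) and lower in 1401 (6.74%), and changes of at least 16-fold in 207 and 53. With library totals in place of TMM factors, the median of all genes moved from 0.0076 to 0.172 on the log2 scale, and the share of calls that were higher moved from 49.1% to 63.9%. Libraries of the genotypes did not overlap in 1254 genes with every CKO library above every WT library (6.03%) and in 1227 with every CKO library below (5.9%).

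The change was set beside the level of the transcript with the FPKM deposited by the authors, which are counts per length and per library total. Of 826 genes with a mean of 100 FPKM or more, 47.7% were lower in CKO and 11.7% higher. Of 6566 genes between 0.1 and 1 FPKM, 11.2% were lower and 21.7% higher. Median log2 changes of genes called higher and lower were 2.81 and -2.44 under 0.1 FPKM and 1.75 and -1.42 from 0.1 to 1. They were 1.06 and -0.743 from 1 to 10, 0.633 and -0.519 from 10 to 100, and 0.378 and -0.421 at 100 and over. The share lower among genes of 100 FPKM and over was 30.6% with library totals, under which fewer of all genes were called lower too. By annotated type, 22.7% of 14791 protein-coding genes were higher and 28.2% lower, while of 3655 lncRNA genes 24.4% were higher and 10.5% lower. The mean count limits what can be called at low levels, so shares in the lowest class (14.8% higher and 5.52% lower of 1956 genes under 0.1 FPKM) rest on few reads. Calls lay on every chromosome, with 18.5% of tested genes higher on chromosome 5 and 26.0% on chromosome 16, and up to 26.6% lower, on chromosome 9.

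**Figure D2:**
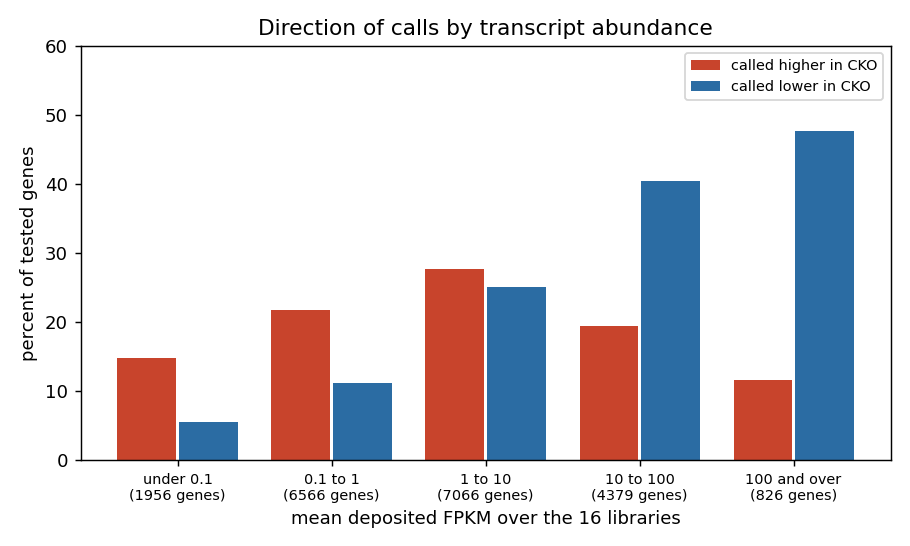
Percent of tested genes called higher (red) or lower (blue) in CKO, by class of mean deposited FPKM over the 16 libraries. The share lower climbs from 5.52% in the lowest class to 47.7% in the highest, and the share higher peaks at 27.7% between 1 and 10 FPKM.

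The 12 highest and 12 lowest genes were taken only from called genes with ranges apart at each stage. Their separation and small adjusted p largely follow from that choice, so only sizes and levels are read. Sohlh1, which encodes a helix-loop-helix transcription factor of primordial and early growing follicles, had the largest increase among the genes named by rule. In WT it lay at 0.0823 CPM at the lowest, 0.279 at the median and 0.819 at the highest, and in CKO at 11.97, 25.8 and 47.7. Every CKO library stood above every WT library, and the fold change was 76.1 (log2 6.25, SE 0.376, edgeR adjusted p 3.54e-09). The effect was not called as different between stages (log2 6.87, 5.61 and 6.28 in order of age, adjusted p of the difference 0.56). Rbms1, which encodes an RNA-binding protein, lay at 0.354, 1.17 and 1.91 CPM in WT and at 17.5, 45.0 and 55.8 in CKO. All libraries were apart again, at 32.5-fold (log2 5.02, SE 0.284, edgeR adjusted p 2.16e-09).

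Several others among the 12 highest have textbook roles in other tissues. Fgf21, a metabolic hormone of liver, had 0 counts in some WT libraries and a WT maximum of 0.45 CPM, and ran from 1.66 to 18.6 CPM in CKO (log2 5.64, SE 0.573). Fbln5, an elastic fibre protein, ran from 0.72 to 2.35 CPM in WT and from 24.3 to 40.6 in CKO (log2 4.57, SE 0.185). Both had all 8 CKO libraries above all 8 WT libraries. Kmt2a, a histone H3 lysine 4 methyltransferase, rose by 4.92, from a WT median of 0.154 CPM to a CKO median of 9.22. Herpud1, a gene of endoplasmic reticulum-associated degradation, rose by 5.01, with its highest CKO values at GO 2W (39.9, 35.0 and 8.14 CPM) and lower ones at FGO 4W (1.79, 4.87 and 1.41). Efs, a Src-binding adaptor, rose by 5.62, although 1 CKO library at GO 2W held 0.318 CPM, inside the WT range of 0 to 0.534. Iqub, Plekhs1, Gbp9 and Fer1l6 were also on the list, with log2 changes of 5.12, 4.87, 4.46 and 4.44.

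Dclk1, a doublecortin-like kinase that binds microtubules, had the largest decrease among the genes named by rule, under the same choice of genes. It lay at 30.2 CPM at the lowest, 50.5 at the median and 70.3 at the highest in WT, and at 0.0826, 0.272 and 0.937 in CKO. No library overlapped, and WT exceeded CKO 124-fold (log2 -6.96, SE 0.210, edgeR adjusted p 8.53e-13). Tuba3b, an alpha-tubulin gene, lay at 101.5, 114.8 and 156.7 CPM in WT and at 0.272, 0.825 and 2.94 in CKO. It too was apart in every library (log2 -6.91, SE 0.320, edgeR adjusted p 2.42e-10), and the size differed between stages, at -6.04, -8.23 and -7.13. Cdc5l, a core component of the spliceosome's Prp19 complex, ran from 17.9 to 178.0 CPM in WT (median 140.9) and from 3.58 to 11.4 in CKO (median 5.33). The lowest WT value came from 1 GO 2W library, the others of that group being 74.1 and 104.5, and the change was -4.31 (SE 0.334, edgeR adjusted p 4.05e-08).

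Snph, a protein that anchors mitochondria to microtubules in neurons, fell by 4.32 on the log2 scale, from a WT median of 35.5 CPM to a CKO median of 1.88. Ece1, the endothelin-converting enzyme, fell by 3.66, and its change grew from -2.42 at GO 2W to -5.68 at FGO 4W. Gstk1, a mitochondrial glutathione transferase, fell by 3.65 and Coro2a, an actin-binding coronin, by 3.52. Lcp2, a signalling adaptor of blood cells, fell by 4.56 over the stages, but at FGO 3W its 2 CKO libraries held 6.39 and 7.35 CPM against 12.2 and 8.25 in WT (log2 -0.57, adjusted p 0.405). Its value was -2.39 with 1 dispersion for all genes and -2.92 without FGO 4W. Lypd9, Abca9, Chst9 and Xlr5c were the remaining genes of the 12 lowest, with log2 changes of -4.99, -4.76, -3.90 and -3.59. Xlr5c and the tubulin, Tcstv, Obox, Pramel and Usp17l genes have near-identical copies, so a read may have been counted for another member.

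**Figure D3:**
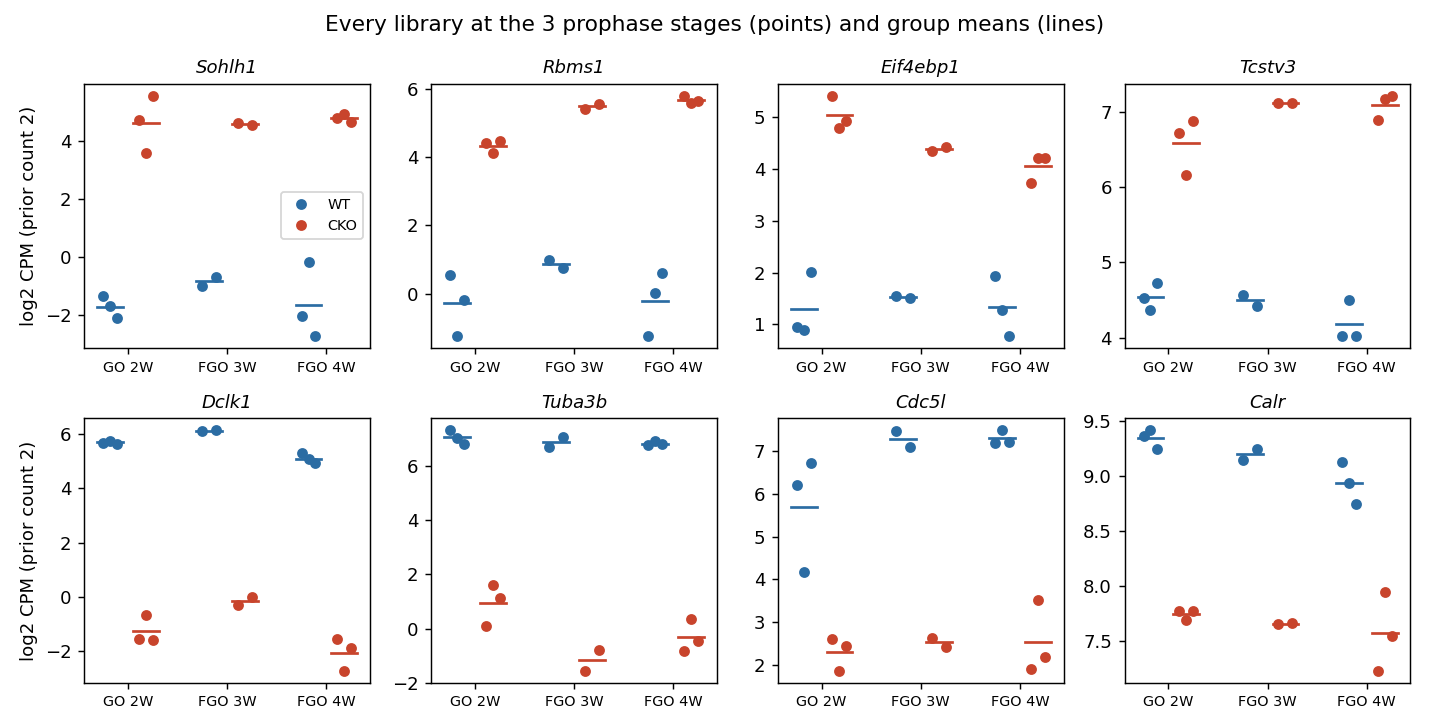
Log2 CPM of every library for 4 genes higher and 4 genes lower in CKO, by stage, with WT in blue, CKO in red and group means as lines. Most of the genes were chosen for ranges apart at each stage, so the gap itself is no finding. The plot shows its size and the spread within groups, with 1 WT library of Cdc5l at GO 2W at 17.9 CPM.

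The series concerns G-quadruplex unwinding, so sequences able to form one were looked for in the changed transcripts, as 4 runs of G, each 3 or longer, joined by loops of any 1 to 7 bases. On the sense strand of 1 GENCODE vM21 transcript per gene, found for 14224 of 14791 tested protein-coding genes (96.2%), 19.0% held the motif. The share was 18.7% of genes called higher, 17.7% of genes called lower and 19.9% of genes not called. Of genes with the motif 22.3% were higher and 26.7% lower, and of genes without it 22.8% and 29.1%. In the 5′ UTR alone the motif was in 7.41%, 6.92% and 7.25% of genes higher, lower and not called. Longer transcripts held it more often, and among the longest transcripts, split in 3 classes of equal size, the shares were 28.3%, 25.4% and 29.6%. Of the 12 highest genes 2 held a motif, Efs and Kmt2a, and of the 12 lowest 0. They are shown with motifs of Gpr3 and Ooep, which were lower in CKO, as examples on both sides of the comparison. Runs of G are in capitals, read 5′ to 3′ from the GENCODE transcripts, with positions on mm10, all on the minus strand.
Efs coding sequence, chr14:54920214-54920236: GGGaaGGGGGccGGGagccaGGG
Kmt2a coding sequence, chr9:44881051-44881080: GGGaagcagcGGGGctGGGGttccaGGGGG
Gpr3 coding sequence, chr4:133210856-133210878: GGGtGGGtgccctGGGcctGGGG
Ooep 5′ UTR, chr9:78378590-78378608: GGGGcGGGGtcGGGctGGG
These letters are a description, and no structure was measured.

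Promoters were read from RefSeq (GRCm38.p6), as windows of 300 bases around each annotated start. The same motif on either strand was in 18.6% of all windows. At least 1 window held it in 27.3% of 2697 protein-coding genes called higher, 29.0% of 3406 called lower and 29.1% of 5799 not called. The windows of the named genes with the largest increase and the 2 largest decreases are shown (for Dclk1 its most upstream one), with motif stretches in capitals. Sohlh1 held it on its own strand. Tuba3b had no match, and Dclk1 had none in its upstream window but one in a second window further into the gene.
Sohlh1, chr2:25847199-25847498, minus strand: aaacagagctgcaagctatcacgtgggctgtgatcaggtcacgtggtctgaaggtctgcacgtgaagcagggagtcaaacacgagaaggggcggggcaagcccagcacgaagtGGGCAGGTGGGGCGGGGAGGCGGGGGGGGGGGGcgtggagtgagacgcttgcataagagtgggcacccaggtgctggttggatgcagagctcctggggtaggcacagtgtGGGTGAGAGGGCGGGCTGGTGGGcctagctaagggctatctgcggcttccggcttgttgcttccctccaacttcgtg
Dclk1, chr3:55242114-55242413, plus strand: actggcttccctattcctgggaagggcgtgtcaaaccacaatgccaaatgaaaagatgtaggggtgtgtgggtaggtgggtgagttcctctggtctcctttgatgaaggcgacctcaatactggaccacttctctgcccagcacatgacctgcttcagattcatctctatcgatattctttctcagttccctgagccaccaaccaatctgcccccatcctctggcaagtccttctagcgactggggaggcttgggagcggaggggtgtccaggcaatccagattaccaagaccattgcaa
Tuba3b, chr6:145615713-145616012, plus strand: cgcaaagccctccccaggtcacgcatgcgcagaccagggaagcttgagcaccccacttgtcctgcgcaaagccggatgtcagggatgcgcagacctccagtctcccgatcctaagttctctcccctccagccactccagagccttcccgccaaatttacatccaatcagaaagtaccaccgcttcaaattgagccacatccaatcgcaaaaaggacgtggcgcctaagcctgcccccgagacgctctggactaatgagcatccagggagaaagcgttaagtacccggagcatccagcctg
No match says only that these letters are not in these windows.

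Lists of genes were then read for their count of calls, beside 22.2% higher and 23% lower among all genes tested and an all-gene median of 0.0076. Shares also differ with transcript level and type. Lower and higher in CKO were 40.5% and 19.4% of genes from 10 to 100 FPKM, and 47.7% and 11.7% at 100 and over. Among protein-coding genes they were 28.2% and 22.7%. No list was matched for level, so a share near these is no trait of the list. The members were counted with edgeR calls over all genes, and no test was made of a list. With library totals every list's median lies higher by about the same shift as all genes. The count with library totals is given where it moved by over 1.5 times or turned the larger side. Among all genes, too, more were called higher than lower with library totals (counts at the end). A split that turns with them is thus no trait of the list.

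Of 16 zona, secreted factor and egg surface genes 11 fell and 1 rose, with a median of -0.54, and 9 fell and 2 rose with library totals. Bmp15, the growth factor by which the oocyte acts on granulosa cells, lay at 3885, 4526 and 5161 CPM in WT (lowest, median, highest) and at 2607, 3108 and 3335 in CKO. The ranges did not overlap, and the change was -0.57 (SE 0.066, edgeR adjusted p 2.72e-06), with -0.59, -0.50 and -0.60 at the 3 stages. Izumo1r, the egg receptor JUNO that binds sperm, fell by 1.82, from a WT median of 636.7 CPM to a CKO median of 149, and the decrease widened from -1.26 at GO 2W to -2.32 at FGO 4W. The fusion tetraspanin gene Cd9 was the 1 that rose, by 0.91, with changes of 1.34 and 1.14 at GO 2W and FGO 3W and of 0.33 at FGO 4W (adjusted p there 0.0628). Among 16 genes of the subcortical maternal complex and cytoplasmic lattices, which hold maternal proteins for the embryo, 8 fell and 0 rose, with a median of -0.34. With library totals 3 of the 16 fell. Tle6 fell by 0.83, Ooep by 0.60 and Padi6 by 0.40, which was -0.24 with library totals.

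Transcription factors of the oocyte moved both ways, with 6 of 15 higher and 6 lower. Foxr1 fell by 1.17, Foxo3, which holds primordial follicles dormant, by 1.14, and Sall4 by 0.71. Foxr1 lay at 103, 108.3 and 117.1 CPM in WT and at 39.5, 50.01 and 56.5 in CKO, with no overlap. Of 36 early embryonic activation genes 13 were higher and 7 lower, with a median of 0.89, and 16 were not called. With library totals 13 were higher and 4 lower. Tcstv3, of a family expressed at the 2-cell stage, lay at 16.2, 21.9 and 26.4 CPM in WT and at 71.4, 128.0 and 148.1 in CKO. All libraries were apart, at 5.74-fold (log2 2.52, SE 0.145, edgeR adjusted p 2.21e-09). Tcstv1 rose by 1.02, Nr5a2, a nuclear receptor active in the early embryo, by 0.89 and Obox7 by 0.89. These were named by adjusted p and all rose, while 3 other members had every CKO library below every WT library.

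The machinery that stores and removes maternal mRNA held changes in both directions. In deadenylation and decay 12 of 29 fell and 6 rose, and 8 fell and 8 rose with library totals. Btg4, the adaptor between maternal mRNA and the CCR4-NOT deadenylase at maturation, lay at 2258, 2621 and 3269 CPM in WT and at 1414, 1587 and 1936 in CKO. The groups did not overlap (log2 -0.76, SE 0.068, edgeR adjusted p 1.55e-07). Its partner deadenylase Cnot7 fell by 0.66 and Cnot10 by 0.61, while Ythdf2, a reader of m6A-marked mRNA, rose by 1.03. In storage and polyadenylation 13 of 29 fell and 7 rose, against 10 and 11 with library totals. Zar1l fell by 0.68 and the poly(A)-binding protein gene Pabpc1l by 0.89, while the translational repressor gene Fmr1 rose by 1.75. Among helicases known to act on G-quadruplexes, 3 of 14 were higher, Dhx36, Dhx9 (1.43) and Ddx5 (0.56), and 5 lower, with Dna2 at -1.05 and Brip1 at -0.63. The median of this list was -0.15, and with library totals it was 0.0145, with 3 higher and 3 lower.

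Translation genes were lower in 20 of 46 and higher in 7 with TMM factors, and lower in 13 and higher in 14 with library totals. Eif4ebp1, the gene of 4E-BP1, which blocks cap-dependent initiation, had the largest increase of the named members, from 1.65, 2.57 and 3.99 CPM in WT to 13.2, 20.9 and 42.5 in CKO. Every CKO library was above every WT library (log2 3.11, SE 0.233, edgeR adjusted p 2.94e-08), and the stage effects were 3.69, 2.88 and 2.69. Eef2k, the kinase that inhibits elongation, fell by 1.03 and Eif2b4, a subunit of the exchange factor eIF2B, by 0.76. Of 82 cytoplasmic ribosomal protein genes 32 fell and 8 rose, with Rpl13 at -0.75, Rpl5 at -0.54 and Rps27 at 0.97. With library totals, under which more of all genes were higher than lower, the split turned, to 16 lower and 23 higher. Many ribosomal protein genes have processed copies, so counts of single members are uncertain. Of 72 genes of RNA polymerase I and ribosome assembly 26 fell and 15 rose, with Bysl at -0.97, Sbds at -0.64 and the polymerase subunit gene Twistnb at 1.30. With library totals 18 of them fell and 22 rose. Of 50 genes of RNA polymerase II and splicing 20 fell and 8 rose, among them Ccnt1, the cyclin of P-TEFb, at 1.28 and the Sm protein gene Snrpb at 1.97. With library totals that split was 15 lower and 14 higher.

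In the stress response list 15 of 36 fell and 9 rose, with a median of -0.233, and of -0.272, -0.346 and 0.00538 at the 3 stages. The 4 named besides Herpud1 were chaperones and folding enzymes of the endoplasmic reticulum, and all 4 fell. Calr, the calcium-binding chaperone calreticulin, lay at 427, 586 and 681 CPM in WT and at 150, 204 and 246.5 in CKO. The ranges were apart (log2 -1.49, SE 0.090, edgeR adjusted p 3.54e-09), and the stage effects were -1.60, -1.54 and -1.34. Pdia4 fell by 1.23, Dnajc3 by 0.99 and Dnajb11 by 0.87. Among the members that rose, some were picked after their values were seen. Eif2ak3, which encodes the stress kinase PERK, rose by 1.42, Atf4 by 0.83 and Xbp1, a transcription factor of the unfolded protein response, by 1.62. They do not stand for the list, in which more members fell than rose. In nuclear-encoded oxidative phosphorylation 32 of 75 fell and 5 rose, and with library totals 20 fell and 12 rose. Atp5o fell by 0.95 and Cox6b1 by 0.71, while Uqcrc1, a core subunit of complex III, rose by 2.47, from a WT median of 13.2 CPM to a CKO median of 76.8.

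Of 36 genes of prophase arrest and resumption 19 fell and 3 rose, with a median of -0.32, and 15 fell and 6 rose with library totals. Gpr3, the receptor that keeps cyclic AMP high and meiosis arrested, lay at 104, 116 and 144 CPM in WT and at 53.1, 62.5 and 68.9 in CKO. No library overlapped (log2 -0.97, SE 0.083, edgeR adjusted p 1.01e-07). Mos, the kinase that starts the MAP kinase pathway of maturation, fell by 0.67, the phosphatase gene Cdc25c by 0.96 and Cdk1 by 0.52. Of 30 genes of anaphase control and metaphase II arrest 16 fell and 4 rose, including securin, Pttg1 (-0.74), the APC/C inhibitor Fbxo43 (-0.92) and the checkpoint kinases Bub1b (-0.71) and Ttk (-0.69). With library totals 12 of the 30 fell and 5 rose. Of 31 tubulin and spindle genes 19 fell and 3 rose, with a median of -0.44, and Tubal3 and Tubb2a fell by 1.08 and 0.68. Of 21 cohesin and axis genes 6 fell and 5 rose, against 3 and 8 with library totals. Hormad1, a protein of unsynapsed chromosome axes, was at 0.476 to 1.14 CPM in WT at GO 2W and at 22.9 to 42.2 in the 5 WT fully grown libraries, against 0.0826 to 0.804 in all CKO libraries.

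Small RNA and retrotransposon silencing genes numbered 13 of 33 higher and 13 lower, and 14 and 10 with library totals. Ddx4, the germ cell helicase of the piRNA pathway, lay at 47.2, 62.1 and 106.1 CPM in WT and at 117.0, 221.9 and 319.3 in CKO. The groups were apart (log2 1.63, SE 0.122, edgeR adjusted p 2.90e-08), while Piwil1 fell by 1.60 and Mael by 1.12. Of 53 DNA methylation and chromatin genes 23 fell and 8 rose. Dnmt3l, the cofactor of de novo methylation, fell by 0.65 and the H3K36 methyltransferase gene Nsd1 by 0.89, and the dioxygenase gene Tet1 rose from a WT median of 5.86 CPM to a CKO median of 18.8, with every CKO library above every WT library. Growth control held 13 lower and 6 higher of 33, with Rraga at -0.96 and Rictor at -0.58, and 8 lower and 6 higher with library totals. Of 38 DNA damage and apoptosis genes 14 fell and 9 rose, with Mdm4 at -0.93, Bcl2l1 at -0.72, Casp9 at 1.13 and the oocyte quality sensor Trp63 at 0.95. With library totals 8 fell and 12 rose. Of 21 follicle somatic markers tested 5 rose and 4 fell. Fshr, the receptor of granulosa cells, rose 15.5-fold, from 0.354, 1.74 and 2.56 CPM in WT to 14.9, 25.5 and 38.2 in CKO, with every CKO library above every WT library. The other 4 that rose were the aromatase gene Cyp19a1 (0.445), Kitl, the ligand of the KIT receptor (0.698), the steroid enzyme gene Hsd3b1 (1.57) and the leukocyte gene Ptprc (4.56, from a mean of 0.0303 CPM to 1.06). Those that fell were the steroid enzyme genes Hsd17b1 (-1.63) and Cyp11a1 (-1.26), the stromal gene Nr2f2 (-1.94) and the endothelial gene Pecam1 (-0.55). The part of somatic RNA in these values was not tested.

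**Figure D4:**
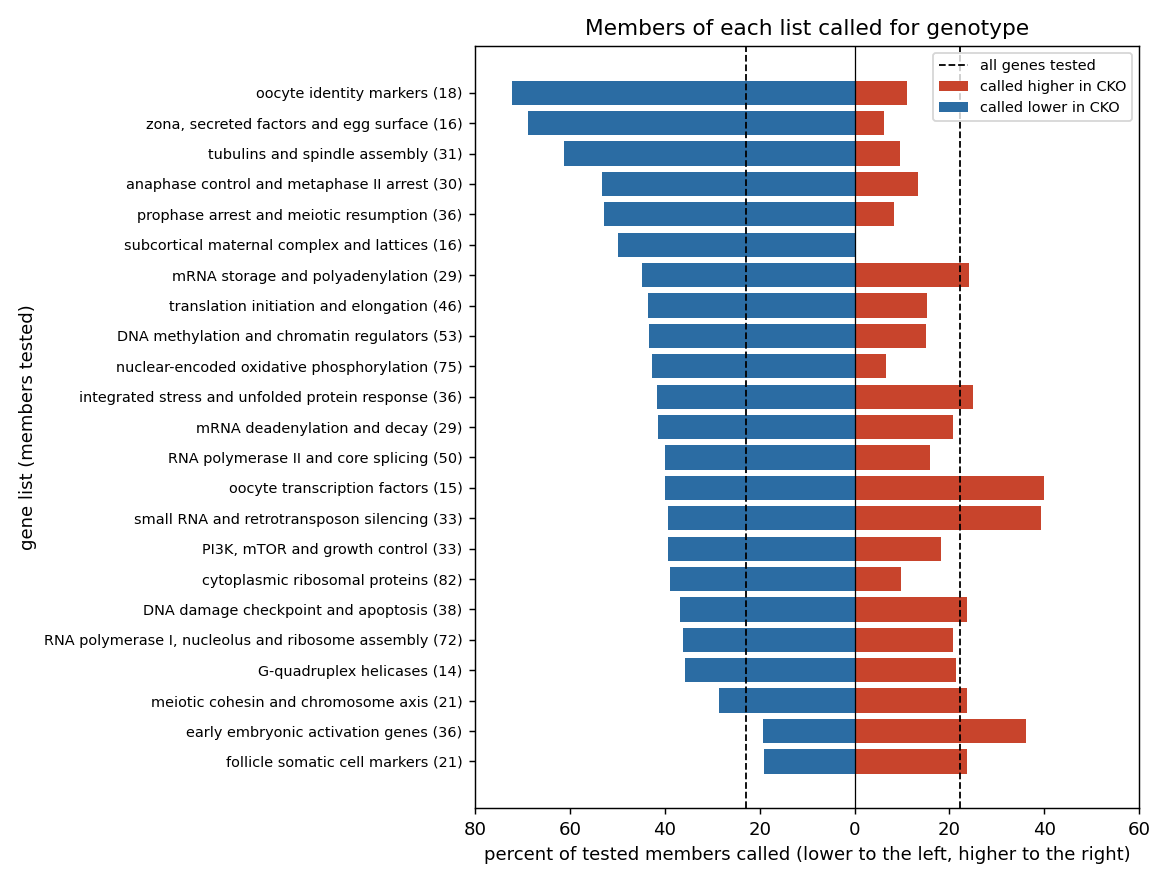
Percent of tested members of each list called higher (right, red) or lower (left, blue), with the number tested in brackets and dashed lines at the 22.2% and 23% of all genes, all with TMM factors. Oocyte identity and zona lists reach furthest to the left, and the early embryonic activation list reaches furthest to the right of the lists with more members higher than lower. Lists were not matched for transcript level, with which the share lower also differs.

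The fit gave 1 effect for all stages, so its parts were read stage by stage. The sign was the same at all 3 stages for 4294 of the 4618 genes called higher (93%) and for 4481 of the 4789 called lower (93.6%). The same libraries made those calls, so agreement in sign is largely fixed by the choice of genes. Of the called genes, 587 higher and 439 lower were called at no single stage in a model of the 6 groups. A test of genotype by stage called 3496 genes (16.8%), among them 682 of those called higher and 1041 of those called lower. Called genes with the same sign at each stage and no call in that test numbered 3787 higher and 3649 lower. A missed threshold there does not show that the effects were equal. In the model of 6 groups, 1368 genes were called higher and 1436 lower at each stage on its own. The ranges of the genotypes were apart at each of the 3 stages with CKO higher in 2085 genes (10%) and with CKO lower in 2273 (10.9%), and 2079 and 2272 of these were called.

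Fits that shared no library gave a check in other tubes. Growing oocytes alone called 3520 of 17227 genes higher (20.4%) and 2827 lower (16.4%), and fully grown oocytes alone called 4066 of 19964 higher (20.4%) and 4112 lower (20.6%). Higher in both were 2120 genes, which is 61% of the growing-oocyte calls that were tested in fully grown oocytes and 60.4% of the reverse. Lower in both were 1868, or 66.4% and 46.7%. Calls in opposite directions numbered 87 and 67. The ages of the FGO groups, and any batch that goes with stage, cannot be told apart from stage.

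**Figure D5:**
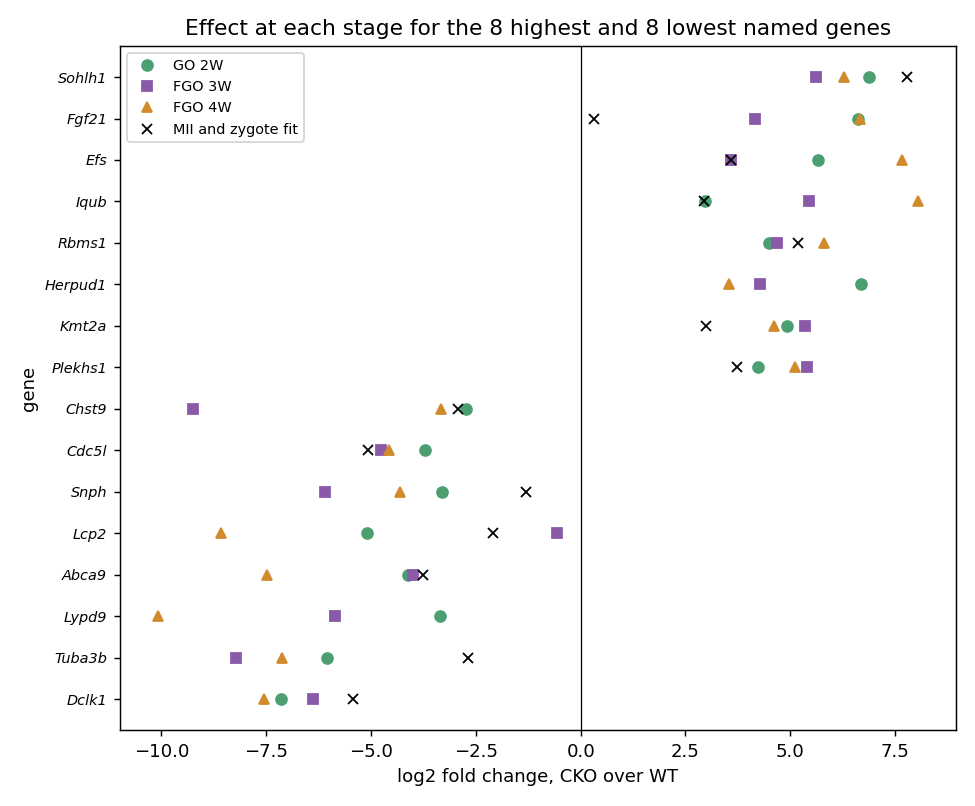
Log2 fold change of CKO over WT at GO 2W (green circles), FGO 3W (purple squares) and FGO 4W (orange triangles) and in the separate fit of MII oocytes and zygotes (crosses, absent where a gene was not tested) for the 8 highest and 8 lowest genes. The genes were chosen for ranges apart at each prophase stage, which fixes their sign there. The plot shows how far the sizes differ between stages, down to -0.57 for Lcp2 at FGO 3W.

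Metaphase II oocytes and zygotes were the other cells measured. Their fit called 2968 of 17365 genes higher in CKO (17.1%) and 2308 lower (13.3%). Of 3907 prophase genes called higher and tested there, 1614 (41.3%) were called higher again and 54 (1.38%) lower. Of 4605 called lower, 1529 (33.2%) were lower again and 228 (4.95%) higher. Where all prophase libraries were apart, 700 of 1173 higher genes (59.7%) and 577 of 1209 lower genes (47.7%) were called again in the same direction. Sohlh1, Rbms1, Tcstv3 and Eif4ebp1 were higher in the later fit by 7.79, 5.17, 3.53 and 3.39, and Dclk1 was lower at -5.42. Cdc5l was at -8.95 in MII oocytes and at 0.59 in zygotes. Fgf21 was not called there (0.32, adjusted p 0.63).

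The ribosomal and respiratory lists are set beside their values in the later cells. Their prophase medians were -0.188 and -0.169 with TMM factors and -0.0241 and -0.00143 with library totals. The all-gene median also lay higher with library totals, so how far these lists lie from 0 rests on the scaling. Both lay under the all-gene median with either scaling. So did all genes of 100 FPKM and over with TMM factors (median -0.19), and the lists were not matched for level. By stage the ribosomal median was -0.2, -0.439 and 0.0346 in order of age, and 40 of the 82 genes were called for genotype by stage (48.8%, against 16.8% of all genes). Of 82 ribosomal protein genes 46 were called higher and 1 lower in the MII and zygote fit, with a median of 1.03, and 17 of those were genes that had been lower in prophase. Of 75 oxidative phosphorylation genes 44 were higher and 7 lower, with a median of 1.06, and 15 had been lower in prophase. Rpl5 was at -0.54 in prophase and 1.71 later, and Cox6b1 at -0.71 and 1.86. The all-gene median of the later fit was 0.0803. Prophase arrest genes held 12 lower and 5 higher of 36 later, with a median of -0.31. These are separate fits, and the difference between them was not tested.

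In some genes the effect turned with stage. Bcat2, the mitochondrial branched-chain aminotransferase, held 4.98, 6.60 and 4.39 CPM in CKO at GO 2W, up to 70.8 at FGO 3W and 169.5, 192.8 and 192.4 at FGO 4W, while WT libraries ran from 113.0 to 168.6. It was thus far below WT in growing oocytes and above it in the oldest (log2 -4.91, -0.94 and 0.61). Gsto2, a glutathione transferase of the omega class, was higher in CKO at GO 2W (2.84) and FGO 3W (2.46), and at FGO 4W held 0, 0 and 0.101 CPM in CKO against 26.5, 19.09 and 26.3 in WT. Kcnk18, a potassium channel, held 0.275, 0.159 and 0.199 CPM in CKO at GO 2W against 41.2, 48.0 and 33.3 in WT, and 53.9 and 52.2 at FGO 3W against 29.9 and 25.4. Pramel27 was at 0.675 and 0.534 CPM in WT at FGO 3W, against 715.5 and 759.8 in CKO, and at 336.2, 485.2 and 311.3 in WT at FGO 4W, against 16.8, 21.8 and 16.1. At the stages whose values are given here the genotypes did not overlap. Pramel27 did overlap at GO 2W, with 123.8 to 280.6 CPM in WT and 252.3 to 280.4 in CKO. Over the 3 stages together none of the 4 was called for genotype, and 1773 of the 3496 stage-dependent genes were likewise not called, while 569 were called higher at 1 stage and lower at another.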

How the data were processed

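The study sequenced poly(A) RNA from 29 tubes, each of 10 cells, by Smart-seq2, and groups were taken from the labels. Per the submitters' processing notes, Trim Galore, FastQC, HISAT2, SAMtools and featureCounts were used with mm10; versions, annotation and strand setting are not given in the sources used here. The deposited counts are raw reads per gene symbol, and between 76.6% and 85.1% of counts from 1 to 20 were even per library, so both ends of a pair may have been counted and a count is not a molecule. The deposited FPKM, computed by the authors, served only for abundance classes. Without strand, reads of overlapping and antisense genes cannot be told apart. Spike-in rows were not used here.

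In edgeR 4.0.16 under R 4.3.3, the counts of the 16 prophase libraries were modelled with TMM factors, filterByExpr by group (minimum count 10), stage and genotype as terms, trended dispersion and quasi-likelihood F tests with 12 residual degrees of freedom. P-values were adjusted by Benjamini-Hochberg over all genes with a threshold of 0.05, and log2 CPM used a prior count of 2. Each SE was derived from the F test, as the size of the fitted log2 coefficient over the square root of F. It therefore restates that test. Genotype by stage was tested with 2 degrees of freedom in a model of 6 groups. Growing, fully grown and later cells were also fitted separately. Dhx36 was also tested by exact permutation within stages. All tests are two-sided. The edgeR script was tested on simulated counts. Motifs were searched in Python 3.11.15 (pandas 2.3.3, NumPy 2.4.6).

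Named genes were Dhx36, the 12 highest and 12 lowest called genes with ranges apart at each stage, at least 5 CPM in the higher genotype and no predicted name, up to 4 called members of each list by adjusted p, and the 8 genes of smallest p for stage dependence. Some genes the rule names are not reported here. Of 861 list entries 853 had a row in the table. Members and lists were chosen with earlier results of these data known. Alternatives were RLE factors, library totals, no filter, 1 dispersion, DESeq2 1.42.0, a replicate block, the mean of 3 stage effects, each stage left out and each library left out. Deviations of same-numbered WT and CKO libraries from their group means showed little correlation (r from -0.0838 to 0.0445). With 2 or 3 libraries per group this check is weak and cannot exclude pairs. No label names pairs, and numbers were not taken as such in the main fit.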

Additional observations from a re-analysis of the deposited data

Results flagged for a closer look

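By edgeR's quasi-likelihood test of genotype by stage, the genotype effect differed between GO 2W, FGO 3W and FGO 4W in 3496 genes. These were 16.8% of all genes tested. Among the 3496 were 32 of the 114 named genes. The 32 include the genes named for the smallest p in this same test, listed next, whose calls follow from that choice. The count of 32 therefore cannot be set against the share of all genes. Values in brackets are adjusted p of the difference between stages.

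The 8 genes named for this test were Bcat2 (6.26e-12), Pramel27 (6.26e-12), Kcnk18 (3.67e-11), Obox2 (5.61e-11), Gsto2 (3.44e-10), Skint5 (3.5e-10), Dbt (9.62e-10) and Pramel23 (2.23e-09). Obox2 was at 25.5 and 24.04 CPM in CKO at FGO 3W, against 2253 and 1542 in WT, and above WT at FGO 4W. Skint5 was absent from WT but for 1 library at 0.0815 CPM at GO 2W, where CKO held 9.30 to 11.8, and it was near 0 in CKO at FGO 4W. The cause of these turns was not tested.

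Of the genes with the largest decreases, the difference was called for Lcp2 (5.08e-05), Ece1 (0.000174), Chst9 (0.000258), Coro2a (0.000635), Gstk1 (0.00281), Lypd9 (0.0037), Tuba3b (0.0116), Snph (0.013) and Xlr5c (0.0155). Of those with the largest increases it was called for Iqub (0.000982), which rose by 2.96, 5.44 and 8.03 at the 3 stages. Among oocyte and meiotic genes it was called for Hormad1 (6.72e-05), Izumo1r (0.000133), Cd9 (0.00323), Hormad2 (0.00914) and Sall4 (0.0104). Among genes of translation and mRNA storage it was called for Eif4h (0.000242), Rps27 (0.0191), Rpl13 (0.0265) and Pabpc1l (0.0356). The others were Mael (0.00507), Tcstv1 (0.0254), Mov10 (0.0265), Ccnt1 (0.0295) and Dnajc3 (0.0347).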

How the results depend on the processing

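The counts called higher and lower in CKO were 4618 and 4789, with 3496 called for genotype by stage. They stayed within 1.5 times under every alternative run, from RLE factors (4865 and 4502) to DESeq2 (5301, 4875 and 4827 for the stage test) and library totals (5929 and 3355). Leaving out each library in turn gave 4346 to 4868 higher, 4013 to 4735 lower, 2488 to 3630 for the stage test, 2883 to 4001 for genes called in growing and again in fully grown oocytes, and 2739 to 3233 for prophase calls called again later. The replicate block, which takes same-numbered libraries as pairs though no label names them so, gave 4031 higher, 4065 lower and 2433. The Dhx36 difference ranged from 0.207 to 0.479 without single libraries and was 0.339 (exact permutation p 0.167) without FGO 4W; its edgeR call was lost under the block (0.30, adjusted p 0.057). Nlrp4f, of the maternal complex list, was not called with library totals (-0.19). The mean of 3 stage effects turned Pramel27 to 2.09 and Gsto2 to -1.38, and leaving out FGO 3W turned Obox2 to 0.85. The effect of each of these genes had opposite signs at different stages. A value over the stages therefore depends on which stages enter and with what weight. With library totals the list medians changed sign for G-quadruplex helicases, mRNA storage, RNA polymerase II and growth control. Leaving out FGO 4W changed the sign for oocyte transcription factors, small RNA silencing and G-quadruplex helicases, and leaving out GO 2W did so for mRNA storage. With library totals more members rose than fell in the lists of ribosomal proteins (23 and 16), translation (14 and 13), ribosome assembly (22 and 18), mRNA storage (11 and 10), cohesin (8 and 3) and DNA damage (12 and 8), where more fell with TMM factors. Of all 20793 genes tested, 5929 were higher and 3355 lower with library totals, so such a turn is no trait of these lists. The median of cohesin genes lay near 0 and changed sign under 12 settings. FGO 3W has 2 libraries per genotype, and low-count genes limit what could be called.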
